A study of Homo sapiens with 4 samples.

Results

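The endoplasmic reticulum (ER) folding and secretory genes described here are 36 named genes among the 58735 genes measured in each library. They were chosen by gene name for what their proteins do, with earlier results of these data known; the rule itself used no measured value. They fall into 5 role groups, with 12 chaperones and their cofactors, 10 disulfide bond enzymes, 6 genes of ER-associated degradation, 3 stress sensor and transcription factor genes, and 5 genes of the translocon and signal peptidase. All 36 reached at least 1 FPKM (fragments per kilobase of exon, which the authors scaled for library size) in at least 1 library, as did 13678 genes in all.

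The cells were OMM2.3, an established uveal melanoma line grown with 10% fetal bovine serum, and RNA was sequenced from 4 libraries. The groups were cells given CCCP, cells given DHA, cells given CCCP and DHA together (the combination), and control cells, with 1 library in each. CCCP is a protonophore that collapses the mitochondrial membrane potential, and the labels do not spell out DHA. The sources used here give neither doses nor times nor the handling of the control cells, and all 4 libraries come from the same line, so any clone-specific trait is shared by every group.

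With 1 library per group, there was no spread between replicates and no test between libraries. Levels are therefore given for each library, and ratios of 2 libraries carry exact 95% Clopper-Pearson intervals that cover counting error only. A 2-fold rule on the log2(FPKM + 0.5) scale decided which genes were called higher or lower, and a 1.5-fold rule was used beside it. Fold values in the text are plain FPKM ratios without the pseudocount. In bulk RNA, fewer cells expressing a gene and less of its RNA per cell cannot be told apart.

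Proteins bound for secretion or for membranes enter the ER through the SEC61 translocon and lose their signal peptide to the signal peptidase complex. In the lumen they are bound by chaperones such as BiP and calreticulin, and protein disulfide isomerases form and shuffle their disulfide bonds. Chains that do not fold are pulled back into the cytosol and degraded. When unfolded chains build up, the sensors IRE1 (encoded by ERN1), ATF6 and PERK (encoded by EIF2AK3) start the unfolded protein response. ATF6 and the spliced form of XBP1, which IRE1 produces, raise transcription of chaperone and degradation genes, whereas PERK slows translation and favours synthesis of ATF4, which raises CHOP (encoded by DDIT3).

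Promoters of the members were searched for exact letters of the ER stress elements, which are known as sites for ATF6 and XBP1. The letters are given because carriers of the same element had opposite directions in the combination library. In RefSeq promoter windows on GRCh38.p14, from 250 bases before to 50 bases after each start, the element ERSE (CCAAT, then 9 bases of any kind, then CCACG, on either strand) was found for 8 of 35 members with a window. It was found for 0.0916% of all 27305 genes with a window. The shorter element ERSE-II (ATTGG, then 1 base of any kind, then CCACG, on either strand) was found for 3 other members and for 0.0696% of all genes with a window. The stretches below run 5′ to 3′ on the strand of the gene, with the element in capitals. They lie before the RefSeq start of their window and outside annotated exons. That of CRELD2 still lies within the gene as annotated in GENCODE 29, which begins at chr22:49918167. The first 3 genes were at least 2-fold lower in the combination library than in control, and the last 4 were not.
CALR (chr19:12938364-12938422, plus strand): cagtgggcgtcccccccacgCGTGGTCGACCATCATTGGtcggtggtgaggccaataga
CRELD2 (chr22:49918534-49918592, plus strand): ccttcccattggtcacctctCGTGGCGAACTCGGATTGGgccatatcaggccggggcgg
SDF2L1 (chr22:21642094-21642144, plus strand): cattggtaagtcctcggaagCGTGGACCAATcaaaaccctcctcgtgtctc
HSPA5 (chr9:125241371-125241429, minus strand): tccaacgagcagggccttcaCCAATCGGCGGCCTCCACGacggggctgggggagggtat
XBP1 (chr22:28800598-28800641, minus strand): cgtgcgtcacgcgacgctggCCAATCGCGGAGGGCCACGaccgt
HERPUD1 (chr16:56932005-56932047, plus strand): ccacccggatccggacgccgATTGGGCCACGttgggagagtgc
HYOU1 (chr11:119057254-119057410, minus strand): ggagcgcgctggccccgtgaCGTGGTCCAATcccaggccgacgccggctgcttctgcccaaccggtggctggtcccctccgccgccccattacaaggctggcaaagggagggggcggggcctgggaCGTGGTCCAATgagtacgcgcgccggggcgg

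CALR, CRELD2, SDF2L1 and both copies in HYOU1 have the element in reverse orientation. The other carriers of ERSE were HSP90B1, with 1 copy in each orientation, ERO1B, in reverse orientation, and CANX and PDIA6. The core CCACG, which lies inside both elements, was found for 26 of the 35 members and for 42.1% of all genes with a window. A match is a run of letters and not a measured binding site, and a member without an exact match was not shown to lack such a site.

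Across all 36 genes, the members together held 0.765% of reads with CCCP, 0.842% with DHA, 0.672% with the combination and 1.05% in control. Total reads recovered from the FPKM values ranged from 16900411 with the combination to 18937286 in control. The control library had the highest level for 19 members, and the combination library had the lowest level for 20 members and the highest for 9. The combination library was lowest for 6 of the 12 chaperone genes, with CCCP lowest for 5, and for 8 of the 10 disulfide genes. Such counts were not made over all measured genes, so whether the members differ from other genes in this is not known.

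Of the 14 melanocyte lineage markers examined, 3 reached 1 FPKM, and TYR, OCA2, SLC45A2, PAX3, EDNRB and KIT had 0 reads in all 4 libraries. The summed level of these markers was 44.7 FPKM with CCCP, 36.4 with DHA, 29.8 with the combination and 45.5 in control. All 6 leukocyte and 5 endothelial markers stayed under 1 FPKM, the highest at 0.0952 and 0.164 FPKM in the 2 lists. Of 7 fibroblast markers 3 reached 1 FPKM, and their summed level was 20.3, 18.6, 8.97 and 32.5 FPKM with CCCP, DHA, the combination and in control. The 3 were FAP, COL1A1 and PDGFRB, at 15.5, 8.86 and 8.07 FPKM in control, whereas LUM had 0 reads in all 4 libraries. The sum for 6 simple epithelial markers was 301, 348, 270 and 378 FPKM with CCCP, DHA, the combination and in control. Most of it came from KRT8 and KRT18, at 195 and 180 FPKM in control, while KRT19, EPCAM and CDH1 stayed under 1 FPKM. The lineage, fibroblast and epithelial sums were lowest in the combination library, as were 20 of the 36 members, and their part in the results was not tested.

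**Figure D1:**
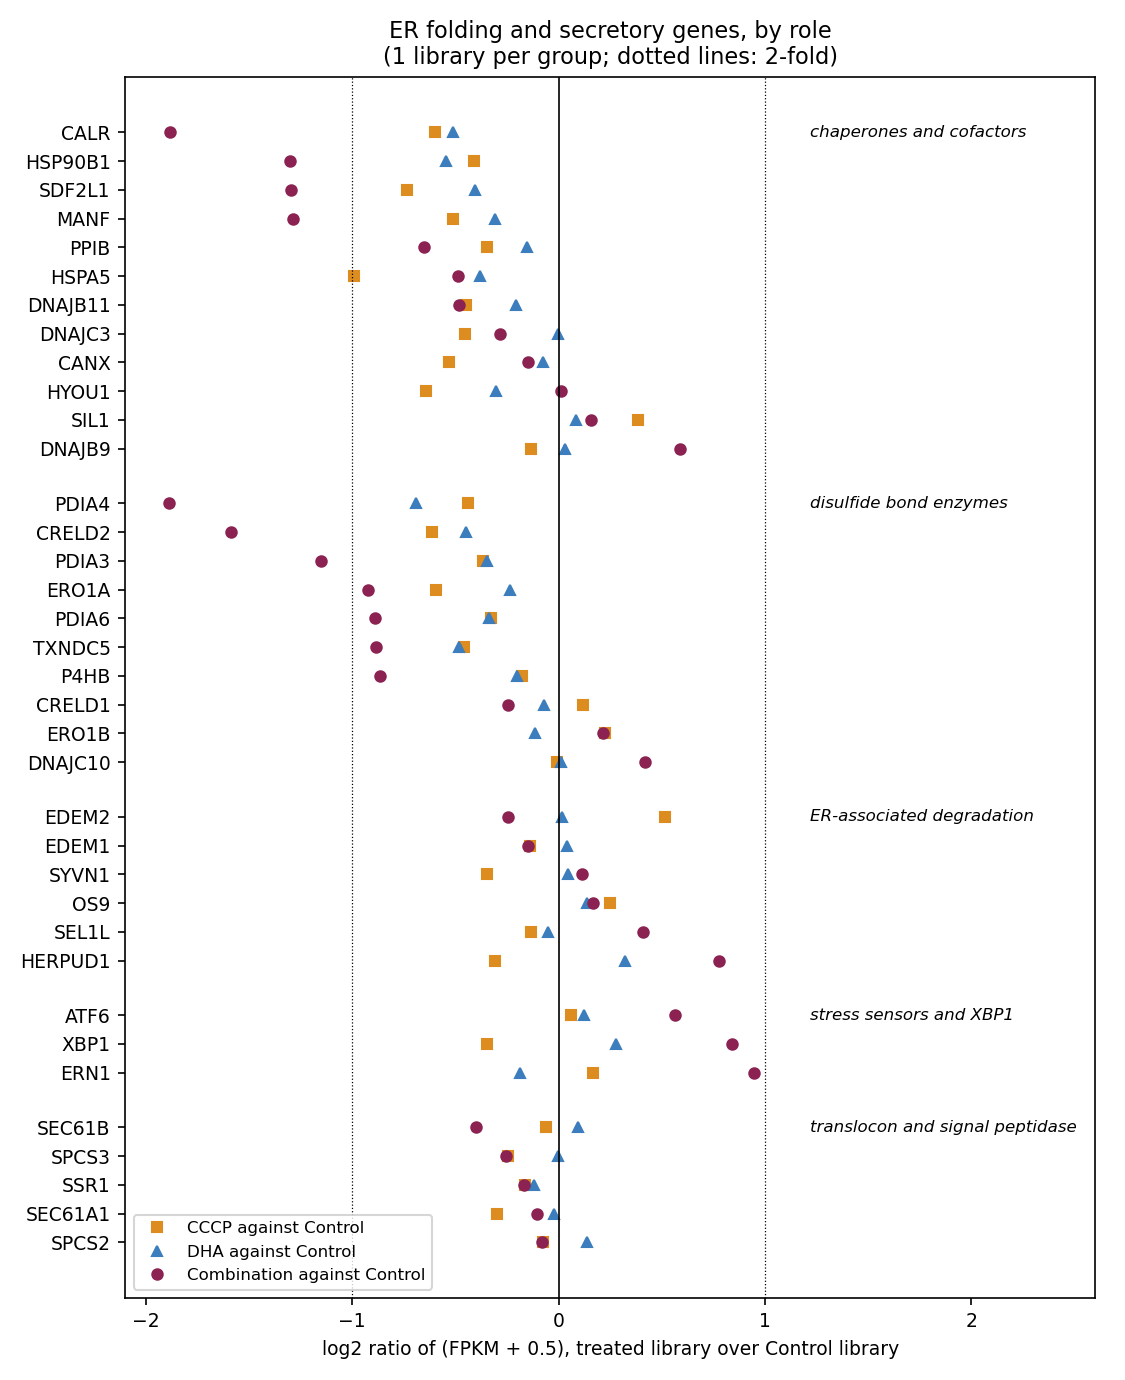
Log2 ratio of FPKM + 0.5 of each of the 36 genes in the CCCP (squares), DHA (triangles) and combination (circles) library over the control library, grouped by role, with dotted lines at 2-fold. The circles of 7 chaperone and disulfide genes lie past the lower line, and those of the 3 stress sensor genes lie between 0.56 and 0.95.

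The 3 highest levels of the 36 genes in control were those of chaperone genes, although others of the group were low. CALR, which encodes the lectin chaperone calreticulin (chr19:12938578-12944489, GRCh38, as for the other genes), had 284 FPKM with CCCP, 302 with DHA and 116 with the combination, against 430 in control. HSP90B1, which encodes the ER Hsp90 GRP94, had 284, 259 and 153 FPKM with CCCP, DHA and the combination, against 379 in control. HSPA5, which encodes the ER Hsp70 BiP (chr9:125234853-125241330), had 140, 214 and 199 FPKM with CCCP, DHA and the combination, against 279 in control. All 3 genes were highest in control, but CALR and HSP90B1 were lowest with the combination and HSPA5 was lowest with CCCP.

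CALR was 3.70-fold (3.59 to 3.81) lower with the combination than in control, and 1.52-fold (1.48 to 1.55) and 1.43-fold (1.40 to 1.46) lower with CCCP and DHA alone. HSP90B1 was 2.47-fold (2.42 to 2.52) lower with the combination. HSPA5 was 1.99-fold (1.95 to 2.04) lower with CCCP and 1.40-fold (1.37 to 1.43) lower with the combination. Against CCCP alone, the combination thus had 1.42-fold (1.38 to 1.46) more HSPA5 and 2.44-fold (2.36 to 2.52) less CALR. These 2 classical target genes of the unfolded protein response thus had ratios of opposite sign between the combination and CCCP alone.

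MANF and SDF2L1, which encode a secreted ER stress-induced neurotrophic factor and a cofactor of the BiP cycle, had the pattern of CALR. MANF had 15.0 FPKM with CCCP, 17.3 with DHA and 8.53 with the combination, against 21.6 in control. SDF2L1 had 10.1, 12.9 and 6.70 FPKM with CCCP, DHA and the combination, against 17.2 in control. With the combination, MANF was 2.53-fold (2.24 to 2.86) and SDF2L1 2.57-fold (2.09 to 3.17) lower than in control. PPIB, the ER cyclophilin, was at 46.6, 53.4 and 37.5 FPKM with CCCP, DHA and the combination and at 59.4 FPKM in control, 1.58-fold (1.47 to 1.70) lower with the combination.

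HYOU1, a large Hsp70-related protein that exchanges the nucleotide of BiP, was lower with each compound alone but not with both. It had 14.7 FPKM with CCCP, 18.7 with DHA and 23.5 with the combination, against 23.3 in control. DNAJB9 (ERdj4), a J-domain cofactor of BiP, had the highest of the 12 chaperone ratios with the combination, at 4.94, 5.61 and 8.48 FPKM with CCCP, DHA and the combination, against 5.47 in control. It was 1.55-fold (1.33 to 1.80) higher with the combination. SIL1, the other nucleotide exchange factor of BiP, was 1.34-fold (1.16 to 1.54) higher with CCCP.

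CANX, the membrane-bound partner of calreticulin, had 105 FPKM with CCCP, 145 with DHA and 138 with the combination, against 153 in control. The J-domain genes DNAJB11 and DNAJC3 were 1.42-fold (1.30 to 1.56) and 1.23-fold (1.12 to 1.36) lower with the combination. Against control, the median log2 ratio of the 12 chaperone genes was -0.48 with CCCP, -0.26 with DHA and -0.49 with the combination, and 11, 10 and 9 of them lay below it. The median of all measured genes was 0.00 with CCCP, 0.00 with DHA and 0.01 with the combination.

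**Figure D2:**
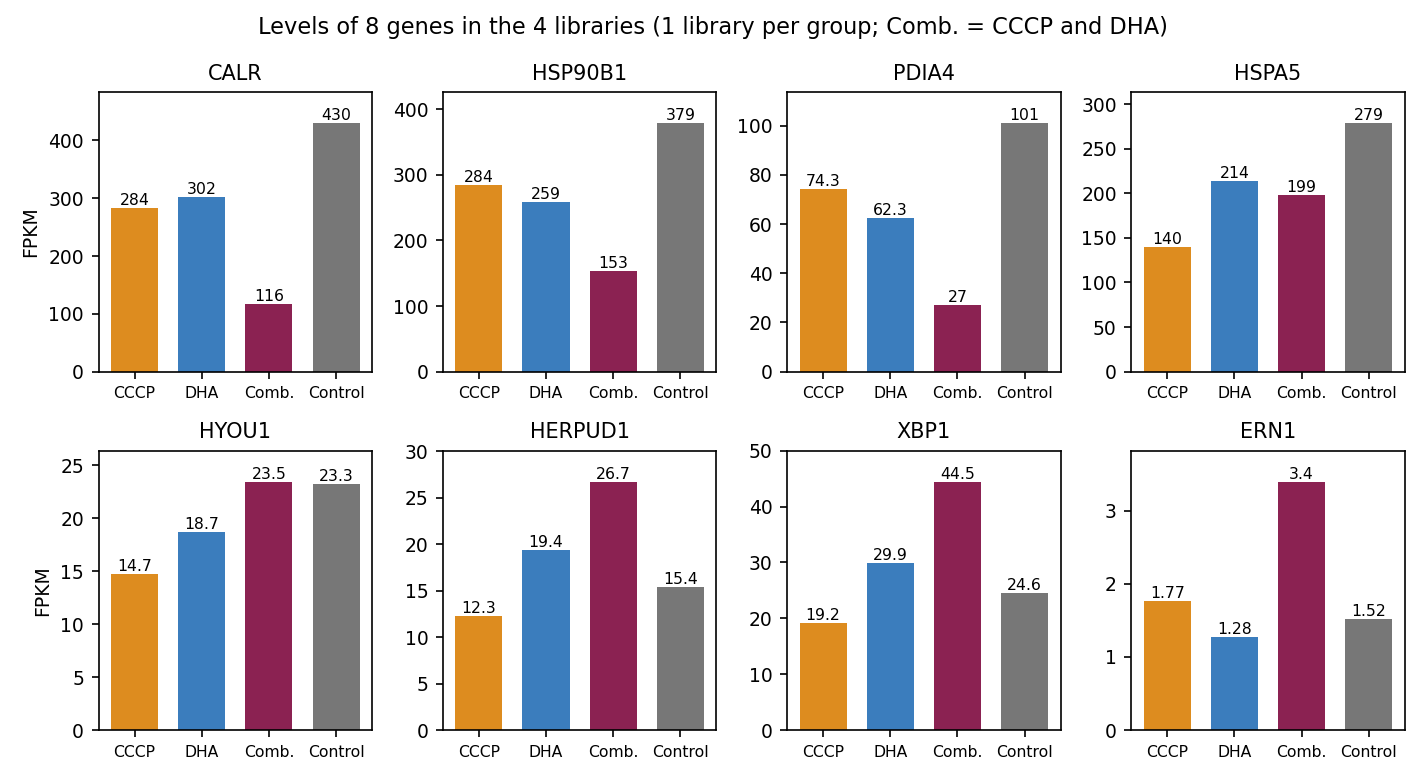
FPKM of 8 genes in the CCCP, DHA, combination (Comb.) and control libraries, 1 library per bar and each panel with its own axis from 0. CALR, HSP90B1 and PDIA4 are lowest in the combination library, at 116, 153 and 27.0 FPKM, HSPA5 is lowest with CCCP at 140, and HERPUD1, XBP1 and ERN1 are highest in the combination library, at 26.7, 44.5 and 3.40 FPKM.

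The disulfide bond enzymes had the lowest median of the 5 groups with the combination. PDIA4 (ERp72), an isomerase with several thioredoxin-like domains (chr7:149003062-149028641), had 74.3 FPKM with CCCP, 62.3 with DHA and 27.0 with the combination, against 101 in control. It was 3.75-fold (3.54 to 3.96) lower with the combination and 1.62-fold (1.56 to 1.69) lower with DHA, the only member at least 1.5-fold lower with DHA alone, where 4.15% of all measured genes were. CRELD2, a secreted ER stress-responsive protein with isomerase activity, had 4.30, 4.88 and 1.94 FPKM with CCCP, DHA and the combination, against 6.83 in control. It was 3.52-fold (2.98 to 4.18) lower with the combination.

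The classical isomerases shared this direction. PDIA3 (ERp57), which acts on glycoproteins held by calreticulin and calnexin, had 114, 116 and 66.2 FPKM with CCCP, DHA and the combination, against 147 in control, and was 2.23-fold (2.15 to 2.30) lower with the combination. P4HB (PDI) had 234, 229 and 144 FPKM with CCCP, DHA and the combination, against 264 in control. PDIA6, which also acts on the IRE1 sensor, had 55.4, 54.9 and 37.3 FPKM in the same order of treatments, against 69.6 in control. P4HB and PDIA6 were 1.83-fold (1.79 to 1.87) and 1.86-fold (1.78 to 1.95) lower with the combination, short of the 2-fold rule.

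ERO1A, the oxidase that re-oxidises the isomerases and a hypoxia-responsive gene, had 17.4, 22.4 and 13.7 FPKM with CCCP, DHA and the combination, against 26.5 in control. It was 1.93-fold (1.83 to 2.04) lower with the combination and 1.53-fold (1.45 to 1.61) lower with CCCP. Its paralog ERO1B was low, at 2.24, 1.67 and 2.23 FPKM with CCCP, DHA and the combination and 1.85 in control, and its intervals against control included 1 in all 3 comparisons. TXNDC5 was 2.07-fold (1.70 to 2.53) lower with the combination as a plain ratio on 144 against 336 reads. With the pseudocount of 0.5 its log2 ratio was -0.88 and it was not called, but with a pseudocount of 0.1 it passed 2-fold.

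Not every gene of the group was lower. DNAJC10 (ERdj5), a reductase that opens disulfide bonds of chains sent for degradation, had 7.88 FPKM with CCCP, 7.99 with DHA and 10.8 with the combination, against 7.92 in control, 1.36-fold (1.30 to 1.42) higher with the combination. CRELD1, the paralog of CRELD2, had 6.59, 5.71 and 5.00 FPKM with CCCP, DHA and the combination, against 6.02 in control, and was 1.20-fold (1.04 to 1.39) lower with the combination. Against control, the median log2 ratio of the 10 disulfide genes was -0.35 with CCCP, -0.29 with DHA and -0.89 with the combination. Of the 10, 7 were at least 1.5-fold lower with the combination, against 12.7% of all measured genes.

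Among the 6 genes of ER-associated degradation, HERPUD1 had the highest ratio to control with the combination and with DHA, and EDEM2 the highest with CCCP. HERPUD1, a membrane protein that organises the ubiquitin ligase complex (chr16:56932048-56944863), had 12.3 FPKM with CCCP, 19.4 with DHA and 26.7 with the combination, against 15.4 in control. It was 1.74-fold (1.63 to 1.86) higher with the combination and 1.25-fold (1.15 to 1.35) lower with CCCP. Its promoter window was also the only 1 of the 35 with the letters TGATGNAA, the kind of site bound by ATF4 with C/EBP factors, on either strand. Those letters, searched after the values were seen, occur in windows of 4.46% of all genes with one. Finding them for 1 of 35 members is no excess over that share, and a link to the level of HERPUD1 was not tested.

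SEL1L, the scaffold of the SYVN1 (HRD1) ubiquitin ligase, had 17.8, 18.8 and 26.2 FPKM with CCCP, DHA and the combination, against 19.6 in control, 1.34-fold (1.28 to 1.40) higher with the combination. SYVN1 itself had 3.91, 5.29 and 5.58 FPKM with CCCP, DHA and the combination, against 5.11 in control, and the combination interval included 1. SYVN1 shares 7.24% of its exon bases with FAU and 6.48% with MRPL49, whose reads may add to its own. EDEM1, EDEM2 and OS9, whose proteins act on misfolded glycoproteins, lay at log2 ratios of -0.15, -0.24 and 0.17 with the combination. EDEM2 was 1.44-fold (1.29 to 1.62) higher with CCCP, at 22.0 FPKM against 15.2 in control. The 6 degradation genes had median log2 ratios of -0.14, 0.04 and 0.14 with CCCP, DHA and the combination, and none was called at 2-fold.

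The stress sensor genes ERN1 and ATF6 and the transcription factor gene XBP1 were all highest in the combination library. XBP1 (chr22:28794555-28800597) had 19.2 FPKM with CCCP, 29.9 with DHA and 44.5 with the combination, against 24.6 in control. ERN1 had 1.77, 1.28 and 3.40 FPKM with CCCP, DHA and the combination, against 1.52 in control, on 637 reads with the combination and 322 in control. ATF6 had 11.2, 11.7 and 16.0 FPKM with CCCP, DHA and the combination, against 10.7 in control. Their ratios to control with the combination were 1.81-fold (1.69 to 1.93) for XBP1, 2.23-fold (1.95 to 2.56) for ERN1 and 1.5-fold (1.41 to 1.60) for ATF6.

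On the log2(FPKM + 0.5) scale the ratio of ERN1 was 0.95, just under the 2-fold rule, which it passed with a pseudocount of 0.1, and the median of the 3 genes was 0.84. Gene-level FPKM does not separate spliced from unspliced XBP1 mRNA, so the activity of IRE1 was not measured. With CCCP alone the 3 ratios lay between -0.35 for XBP1 and 0.17 for ERN1, and with DHA alone between -0.19 for ERN1 and 0.28 for XBP1.

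Translocon and signal peptidase genes lay within 1.5-fold of control. With 5 genes this is near the background, since at 1.5-fold 11.1% of all measured genes were higher and 12.7% lower with the combination. SEC61A1, the channel subunit, had 81.0, 98.4 and 92.7 FPKM with CCCP, DHA and the combination, against 99.8 in control. SEC61B, a small translocon subunit, was lowest of the 5 ratios with the combination, at 28.1 FPKM against 37.2 in control, 1.32-fold (1.19 to 1.47) lower. SSR1, a translocon-associated protein gene, and SPCS3, a signal peptidase subunit gene, lay lower as well, by 1.13-fold (1.07 to 1.19) and 1.20-fold (1.14 to 1.26). The 5 genes had median log2 ratios of -0.16, 0.00 and -0.17 with CCCP, DHA and the combination.

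SPCS2, another signal peptidase subunit gene, is uncertain because of its pseudogene SPCS2P4, which matched it at 99.1% identity over 684 bases. SPCS2 had 901 reads with CCCP, 1079 with DHA and 928 with the combination, against 1107 in control. SPCS2P4 had 88, 226 and 56 reads with CCCP, DHA and the combination, against 480 in control. As deposited, SPCS2 lay at a log2 ratio of -0.08 with the combination, but with the reads of both rows added it lay at -0.51, and at -0.45 and -0.10 with CCCP and DHA. The sources used here do not say how reads that fit both rows were assigned. PDIA3P1, a copy of PDIA3 with 98% identity over 1514 bases, held reads equal to 3.45 to 5.04% of those of PDIA3, and adding them left PDIA3 at -1.14 with the combination.

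Counted over all 36 genes, 7 were at least 2-fold lower with the combination than in control, against 5.44% of all measured genes. They were CALR, HSP90B1, MANF, SDF2L1, PDIA3, PDIA4 and CRELD2. At 1.5-fold, 12 were lower, against 12.7% of all genes, and 4 (DNAJB9, HERPUD1, XBP1 and ERN1) were higher, against 11.1%. No member was at least 2-fold higher, against 4.52% of all genes. Restricted to genes averaging 5 FPKM or more, the background was 4.42% for 2-fold lower and 2.88% for 2-fold higher. Of the 36 members 31 pass that filter, and of the 7 lower genes CRELD2 does not.

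With either compound alone fewer members passed the fold rules. With CCCP no member was at least 2-fold lower, against 2.32% of all genes, and HSPA5 came nearest at a log2 ratio of -0.99, which rescaling to equal summed reads or FPKM took past 2-fold. At 1.5-fold 6 members were lower with CCCP, against 6.46% of all genes, and they were HSPA5, HYOU1, SDF2L1, CALR, CRELD2 and ERO1A. With DHA no member was at least 2-fold lower or higher, against 1.86% and 2% of all genes. With CCCP no member was at least 2-fold higher, against 3.21%. Restricted to genes averaging 5 FPKM or more, these shares were 0.68% lower and 0.888% higher with CCCP, and 0.0888% lower and 0.74% higher with DHA. No member was at least 1.5-fold higher with CCCP or with DHA, against 7.84% and 4.43% of all genes. The median log2 ratio of the 36 genes was -0.32 with CCCP, -0.10 with DHA and -0.24 with the combination. These comparisons share the control library.

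Setting the combination against CCCP alone gave the ratio for DHA in cells that also had the protonophore. XBP1 and HERPUD1 were at least 2-fold higher, against 3.46% of all genes, at 2.31-fold (2.14 to 2.49) and 2.17-fold (2.02 to 2.33). CALR and PDIA4 were at least 2-fold lower, against 4.94% of all genes, PDIA4 at 2.76-fold (2.60 to 2.92). Restricted to genes averaging 5 FPKM or more, these shares were 1.76% higher and 2.93% lower. CRELD2 was 2.22-fold (1.84 to 2.67) lower as a plain ratio and at -0.98 with the pseudocount. At 1.5-fold 5 members were higher, against 8.87% of all genes, and 8 were lower, against 12.4%. The median log2 ratio of the 36 genes was -0.02, with 13 above and 23 below the CCCP library.

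Setting it against DHA alone gave the ratio for CCCP in cells that also had DHA. ERN1 was at least 2-fold higher, against 3.27% of all genes, with 3.40 against 1.28 FPKM. CALR, PDIA4 and CRELD2 were at least 2-fold lower, against 3.63% of all genes, with log2 ratios of -1.37, -1.19 and -1.14. Restricted to genes averaging 5 FPKM or more, a filter that ERN1 and CRELD2 do not pass, these shares were 1.01% higher and 2.72% lower. At 1.5-fold 1 member was higher, against 7.64% of all genes, and 9 were lower, against 9.38%. The median log2 ratio of the 36 genes was -0.20, with 24 below the DHA library.

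The departure from additivity was the log2 ratio of the combination to control minus the sum of those of the single compounds. It was -0.77 for CALR, -0.75 for PDIA4, -0.53 for CRELD2, -0.49 for P4HB and -0.47 for MANF, whose combination levels were lower than the sum of the single ratios. It was 0.97 for ERN1, 0.96 for HYOU1, 0.91 for XBP1, 0.88 for HSPA5 and 0.76 for HERPUD1, whose combination levels were higher than that sum. EDEM2 had the lowest departure, -0.78. Over the 36 genes 17 departures were above 0 and 19 below, with a median of -0.03, whose sign turned under other scalings, and the median of all measured genes was 0.00. The 4 libraries leave no residual degree of freedom for a test of this quantity.

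**Figure D3:**
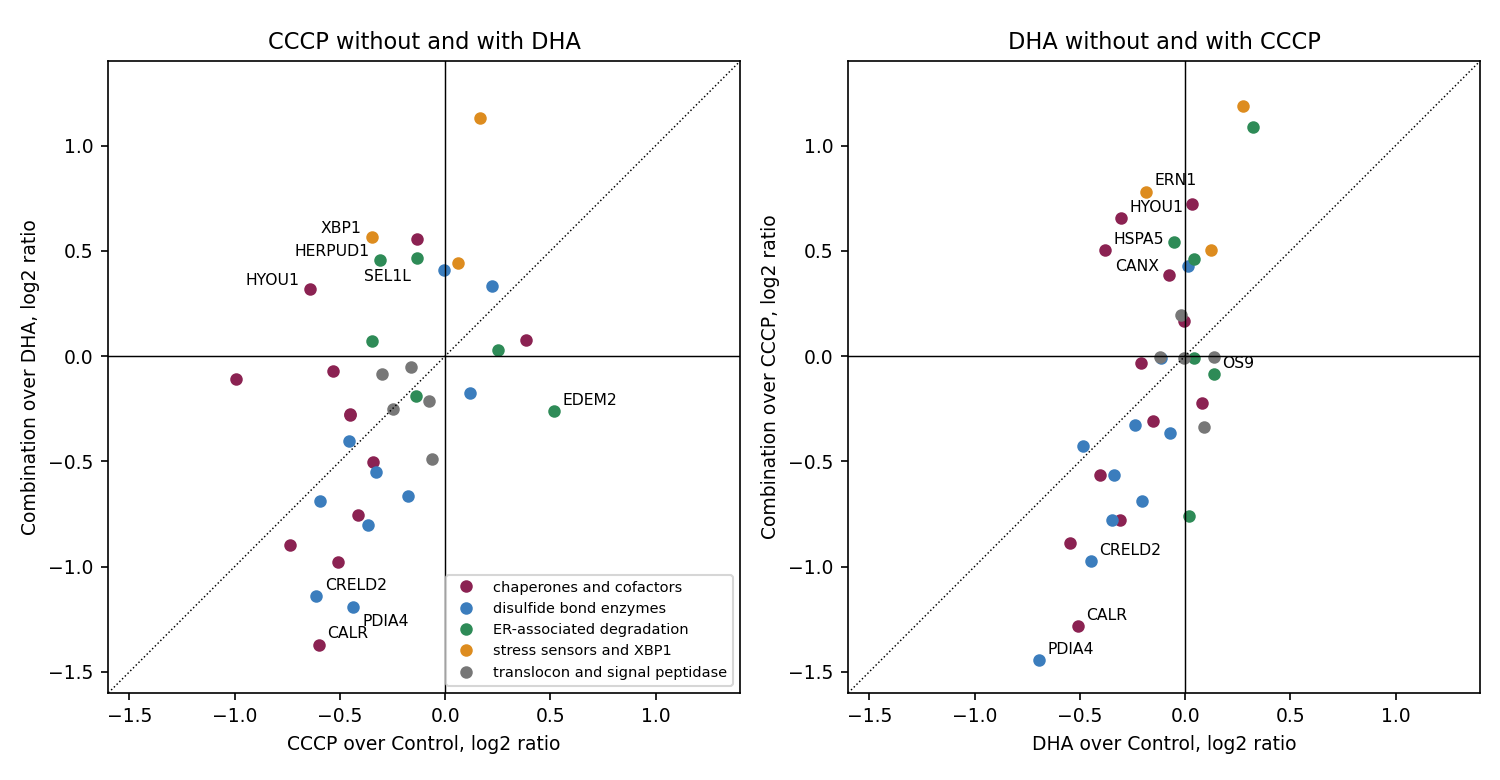
Log2 ratio of FPKM + 0.5 for each of the 36 genes for 1 compound alone over control (horizontal) and for the same compound added to the other (vertical), with CCCP on the left and DHA on the right, coloured by role. The dotted line marks equal ratios. CALR, at -0.60 and -1.37 for CCCP, lies below it, and XBP1, at -0.35 and 0.56 for CCCP, lies in the quadrant of opposite signs.

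The 11 genes with ERSE or ERSE-II in their promoter window covered nearly the whole range of ratios. With the combination 4 of the 11 were at least 2-fold lower than control (CALR, CRELD2, HSP90B1 and SDF2L1), and their log2 ratios ran from -1.88 for CALR to 0.84 for XBP1, with a median of -0.49. Of the other 24 genes with a window 2 were at least 2-fold lower, and 5.44% of all measured genes were. PDIA3, also at least 2-fold lower, has no window and is in neither set. The 24 had a median of -0.21 and ran from -1.89 for PDIA4 to 0.95 for ERN1. With CCCP the medians were -0.53 for the 11 carriers and -0.15 for the other 24, and with DHA they were -0.34 and -0.01. These are descriptions of 2 sets of genes and were not tested.

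ATF4, DDIT3, TRIB3 and PPP1R15A had their highest levels in the combination library. Whether PERK or another signal set these levels was not tested. ATF4 had 129 FPKM with CCCP, 229 with DHA and 342 with the combination, against 104 in control. DDIT3, which encodes CHOP, had 7.37, 12.7 and 63.0 FPKM with CCCP, DHA and the combination, against 5.50 in control. TRIB3, a pseudokinase gene induced by ATF4 and CHOP, had 7.27, 16.3 and 77.4 FPKM in the same order of treatments, against 4.67 in control. PPP1R15A, whose protein reverses the translation block, was 4.77-fold (4.52 to 5.04) higher with the combination. EIF2AK3, the gene of the PERK kinase, was 1.89-fold (1.62 to 2.20) lower with the combination, at 2.69 FPKM against 5.07 in control, in contrast to ERN1 and ATF6. They belong to a mixed list of 14 other stress-signalling genes, of which 8 lay above and 6 below control with the combination (median log2 ratio 0.15), and 7 above and 7 below with CCCP (median -0.01). With the combination 4 of the 14 were at least 2-fold higher, against 4.52% of all measured genes. CREB3L2, at 2.11-fold (1.96 to 2.26), was the 1 gene at least 2-fold lower, against 5.44%.

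Folding genes outside the 36 were less shifted. For the 35 other folding genes the median ratio of the combination was -0.03 (log2), with 16 above and 19 below control. Of them 1 was at least 2-fold lower, against 5.44% of all measured genes. That gene was MLEC, which encodes the glucose-binding ER lectin malectin, at 30.2 FPKM with CCCP, 34.8 with DHA and 19.7 with the combination, against 47.4 in control. PDIA5 was 1.87-fold (1.71 to 2.05) lower with the combination, whereas ERP29 and DNAJC1 were 1.86-fold (1.75 to 1.98) and 1.92-fold (1.69 to 2.17) higher. The 25 measured genes of 26 other degradation genes had a median of -0.01, with 12 above and 13 below control and none at least 2-fold different. Among them VCP, the ATPase that pulls substrates from the membrane, was 1.60-fold (1.54 to 1.67) lower.

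**Figure D4:**
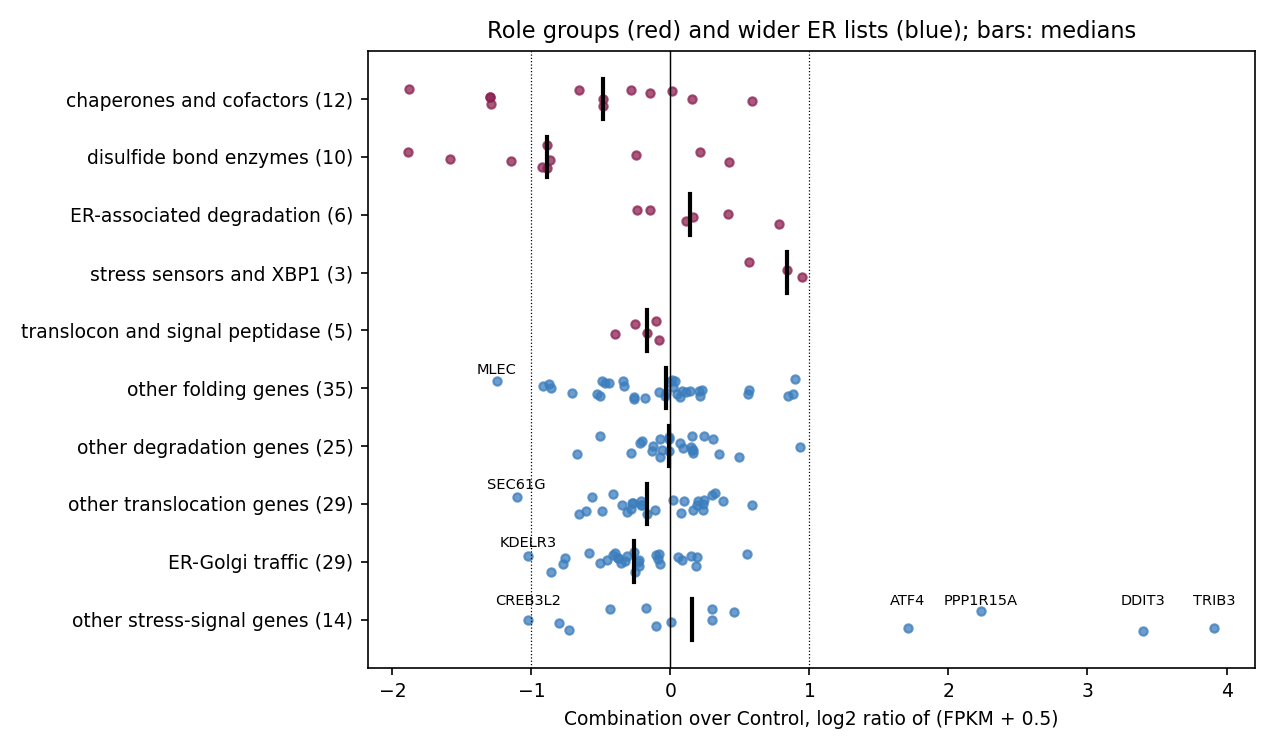
Log2 ratio of FPKM + 0.5 in the combination library over the control library for the 5 role groups of the 36 genes (red) and 5 wider lists of ER genes (blue), with 1 point per gene, the number of genes in brackets, black bars at the medians and dotted lines at 2-fold; vertical scatter within a row has no meaning. Disulfide genes have a median of -0.89 and the 3 stress sensor genes one of 0.84, while ATF4, PPP1R15A, DDIT3 and TRIB3 lie between 1.71 and 3.91.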

How the data were processed

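RNA sequencing covered 4 OMM2.3 libraries, which the labels' protocols say were prepared from 1 ug of total RNA with Illumina's TruSeq kit. Each deposited file holds FPKM values of 58735 genes, per the file headers. Aligner, counter and genome build: not given in the sources used here. Every gene identifier matched GENCODE 29 (GRCh38), which supplied gene names, coordinates and exon lengths; of the names, 58708 matched as written.

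Multiplied by exon length, 100% of the values above 0 came out as whole reads, within 0.01 reads, once divided by a library's step. They served for depth, intervals and 2 alternatives. The deposited scaling between libraries was kept.

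Ratios used log2(FPKM + 0.5), for genes reaching 1 FPKM in any library. Fold intervals are exact conditional binomial (Clopper-Pearson) at 95%, and the code was tested on simulated data. The departure from additivity is a value without a test, and an additive fit with 1 residual degree of freedom was left out. Copies were pseudogene transcripts with at least 90% identity over 300 bases and 20 reads (BLAST 2.17.0). Overlapping genes, 9 in all, share 2.58 to 7.32% of the exon bases of 7 members (HSP90B1, DNAJB9, DNAJB11, SIL1, CRELD2, SYVN1 and SEC61A1). Reads from the shared bases cannot be told apart, since the kit does not mark strand and FAU lies on the same strand as SYVN1. Promoter sequences are from RefSeq on GRCh38.p14, with windows for 35 of 36 members, all but PDIA3.

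The members and lists were chosen with earlier results of these data known. Any member could be named. In the wider lists these were the 3 highest and 3 lowest by combination ratio with a mean of at least 5 FPKM, of which a few are given, besides ATF4, DDIT3, EIF2AK3, TRIB3, member pseudogenes and markers. Alternatives fixed at the start were a 1.5-fold rule, pseudocounts of 0.1 and 1, leaving out the filter or raising it to a mean of 5 FPKM, and rescaling to equal summed FPKM or by median of ratios. Rescaling to equal summed reads, protein-coding genes only, and adding reads of near-identical copies were chosen after seeing the data. Scripts ran on Python 3.11.15 with scipy 1.17.1, pandas 2.3.3, numpy 2.4.6 and, for plots, matplotlib 3.10.9.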

Additional observations from a re-analysis of the deposited data

Results flagged for a closer look

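For some members the ratio for a compound alone and the ratio for the same compound added to the other had opposite signs, each with a counting interval excluding 1. The 2 ratios share no library, and the difference between them was not tested, since each rests on 1 library per group. Such pairs were not counted among all measured genes, so whether the members have more of them than other genes is not known. The intervals cover counting error only and can exclude 1 at small ratios, as for OS9 and CANX below.

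For CCCP this held for 5 of the 36 genes. Added to DHA, against CCCP alone over control, CCCP gave log2 ratios of 0.56 against -0.35 for XBP1, 0.45 against -0.31 for HERPUD1, 0.32 against -0.64 for HYOU1, and 0.46 against -0.13 for SEL1L. EDEM2 went the other way, at -0.26 when CCCP was added to DHA and 0.52 with CCCP alone.

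For DHA it held for 5 of the 36 genes as well. Added to CCCP, against DHA alone over control, DHA gave log2 ratios of 0.78 against -0.19 for ERN1, 0.65 against -0.31 for HYOU1, 0.50 against -0.38 for HSPA5, and 0.38 against -0.08 for CANX. OS9 had -0.08 when DHA was added to CCCP and 0.14 with DHA alone. HYOU1 was the only gene in both sets.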

How the results depend on the processing

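No paired analysis was possible because each group holds 1 library, and no library could be left out for the same reason. Rescaling by median of ratios, no filter and protein-coding genes only left the counts of members at 2-fold, the medians over members and the departures within the limits set for them. Under the 1.5-fold rule the members lower numbered 6 with CCCP, 1 with DHA and 12 with the combination against control, 8 for the combination against CCCP and 9 against DHA, and those higher numbered 4 against control and 5 against CCCP. With CCCP 1 member, HSPA5, was at least 2-fold lower after rescaling to equal summed FPKM or equal summed reads, and the median over members was -0.43 under equal summed FPKM. The median departure from additivity turned to 0.15 under equal summed FPKM, 0.07 under equal summed reads and 0.02 with reads of copies added. With a pseudocount of 0.1, 1 member, ERN1, was at least 2-fold higher with the combination than in control. Against DHA, 0 were with a pseudocount of 1, or with a mean of at least 5 FPKM, where ERN1 is not measured. On the lower side, a pseudocount of 0.1 took the combination ratios of TXNDC5 to control, CRELD2 to CCCP and MANF to DHA past 2-fold. A pseudocount of 1 left that of CRELD2 to DHA just short of it. Shares of all measured genes at 2-fold moved by over 1.5 times in 36 instances, mostly under another filter, pseudocount or protein-coding genes only. Of 180 ratios of single members, 16 changed sign under equal summed FPKM and 11 under equal summed reads, all of them within 0.0919 (log2) of 0. Adding reads of near-identical copies changed 1 sign, that of SPCS2 with DHA. Equal summed FPKM moved the median of all measured genes by -0.09 (log2) with CCCP and -0.08 with DHA. Depth limits SDF2L1, TXNDC5, ERO1B, CRELD2, DNAJB9 and ERN1 most, with the widest intervals against control, and the spread between cultures was not measured.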

Other observations

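Genes that carry cargo between the ER and the Golgi lay slightly lower with the combination. Of 29 such genes 23 were below control, with a median log2 ratio of -0.26, beside -0.09 with CCCP and -0.10 with DHA. KDELR3 and KDELR2, receptors that return chaperones bearing a KDEL tail from the Golgi to the ER, had 8.74 and 35.9 FPKM with the combination, against 18.3 and 65.4 in control. KDELR3 was 2.09-fold (1.82 to 2.41) lower and KDELR2 1.82-fold (1.74 to 1.91) lower. KDELR3 was the 1 gene of the 29 at least 2-fold lower, no excess over the 5.44% of all measured genes. SEC24D, a cargo-binding coat subunit gene, was 1.76-fold (1.64 to 1.90) lower, while MIA3, which helps to load large cargo such as collagen, was 1.5-fold (1.39 to 1.62) higher.

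For the 29 other translocation genes the median ratio of the combination was -0.17 (log2), and 1, SEC61G, was at least 2-fold lower, against 5.44% of all measured genes. SEC61G, the third subunit of the channel, had 29.6 FPKM with CCCP, 46.1 with DHA and 24.2 with the combination, against 52.7 in control. SSR3, a translocon-associated protein gene, had 228, 234 and 287 FPKM with CCCP, DHA and the combination, against 191 in control, 1.5-fold (1.47 to 1.53) higher with the combination. Subunits of the translocon and its associated complex thus differed in direction in these libraries. COL1A1, a collagen chain folded in the ER and examined here as a fibroblast marker, had log2 ratios to control of -1.62, -1.86 and -3.34 with CCCP, DHA and the combination.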
